A study of Mus musculus with 30 samples.

Results

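CP-865520, a PPAR-alpha agonist known here only by its code name, was compared with vehicle in mouse liver after 24 h. The comparison took the 8 of 30 arrays whose titles give liver, 24 h and either CP-865520 or vehicle, 4 arrays each, and covered all 12422 probe sets that are not array controls. In the study, male C57Bl/6 mice were given 1 of 3 agonists (1 mg/kg daily) or their vehicle, water, for 24 h or 5 days. RNA was extracted from flash-frozen liver, labelled with biotin and read on expression arrays. The other groups compared here are CP-865520 and vehicle at 5 days (4 arrays each), and CP-775146 and CP-868388 at 24 h (4 arrays each, same dose). CP-868388 (4 arrays) and CP-775146 (2 arrays) at 5 days entered the filter and the shared estimate of spread, but no comparison. All groups share the strain, and no genetic change is given for any. Each array was taken as 1 mouse, because the design text states group sizes as mice. The labels do not name the animals, so the spread used is that between arrays. The p-values below set each difference against that spread within groups, pooled over all 30 arrays in 8 groups.

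PPAR-alpha is a nuclear receptor for fatty acids and their derivatives. It binds DNA with the retinoid X receptor and, when an agonist is bound, raises transcription of genes for fatty acid transport, beta-oxidation, microsomal fatty acid hydroxylation and ketone body synthesis. In rodent liver its agonists enlarge the peroxisomal compartment and also lower many transcripts, among them genes of inflammation and amino acid breakdown. The table used here pairs no probe set with a gene, so the responses below are given by probe set ID. Genes are named only where the ID of a control probe set carries the name. For the same reason the liver label could not be checked against hepatocyte markers or markers of other liver cells. In whole liver, fewer cells of a type and less RNA per cell cannot be told apart.

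A value is the deposited intensity of a probe set on an array. The lowest value in the table is 50, called the floor here, and a probe set at the floor has only an upper bound. Of the 12422 probe sets, 7963 lay above the floor on at least 2 of the 30 arrays and were tested. A further 506 were above it on 1 array and 3953 on none. Changes are differences of log2(value + 50), compound minus vehicle, with the standard error (SE). For dim probe sets this scale gives too small a change. A probe set is said to rise or fall, or is called, at a Benjamini-Hochberg adjusted p under 0.05 from limma. Folds are ratios of mean intensities.

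At 24 h, 711 probe sets rose and 902 fell, together 1613 or 20.3% of those tested (8.93% rose and 11.3% fell). Most of these changes were small, 1021 (63.3%) being under 1.5-fold on the log2(value + 50) scale. At least 2-fold on that scale were 79 rises and 101 falls. The largest changes were mostly rises, with 17 rises and 4 falls at 4-fold or more and 4 rises and 2 falls at 8-fold or more. The median change was 0.48 among the rises and -0.50 among the falls, beside 0 over all 7963. The 4 compound and 4 vehicle arrays did not overlap in 1726 probe sets (21.7%), and in 580 of the 711 rises and 687 of the 902 falls.

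The share of probe sets that changed was larger among bright ones. Of the 3539 with a mean intensity up to 100 over the arrays, 13.2% were called, 120 up and 346 down. Between 300 and 1000 it was 32%, with 206 up and 190 down. Above 3000 it was 47.8% of 232, with 74 up and 37 down. Falls thus outnumbered rises among dim probe sets, and rises outnumbered falls among the brightest. The floor and the added 50 compress differences of dim probe sets, and their part in this gradient was not tested. Among the 5178 probe sets that exceeded the floor on all 8 arrays, 593 rose (11.5%) and 671 fell (13%).

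The largest rise among probe sets that exceeded the floor on all 8 arrays was in 103581_AT. It read 4705, 4572, 4318 and 3602 on the CP-865520 arrays and 244, 207, 231 and 147 on the vehicle arrays. The groups lay far apart, at 4299 ± 492 and 207 ± 43 (SD, n = 4 each), a 20.7-fold rise with a log2 change of 4.09 ± 0.12 (SE, limma adjusted p = 5.33e-19). The next, 97316_AT, read 5216, 3856, 3938 and 4036 under the compound and 267, 216, 274 and 187 under vehicle. Replicate 1 of the compound stood above the other 3, and again no array of the groups overlapped. This was an 18.1-fold rise and a log2 change of 3.91 ± 0.11 (SE, limma adjusted p = 5.12e-19).

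The largest fall was in 94795_AT, with 262, 110, 160 and 126 under CP-865520 against 2100, 2258, 2355 and 3133 under vehicle. The compound arrays were all below the vehicle arrays, 15-fold lower by the means, and the log2 change was -3.58 ± 0.22 (SE, limma adjusted p = 3.24e-12). The probe set 95043_AT fell next, to 173, 166, 206 and 196 from 1975, 1971, 1640 and 3073. It was 11.7-fold lower with a log2 change of -3.20 ± 0.23 (SE, limma adjusted p = 5.94e-11), and its compound arrays spread little (185 ± 18.9 SD, n = 4). Vehicle replicate 4 was the highest array of both falling probe sets.

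**Figure D1:**
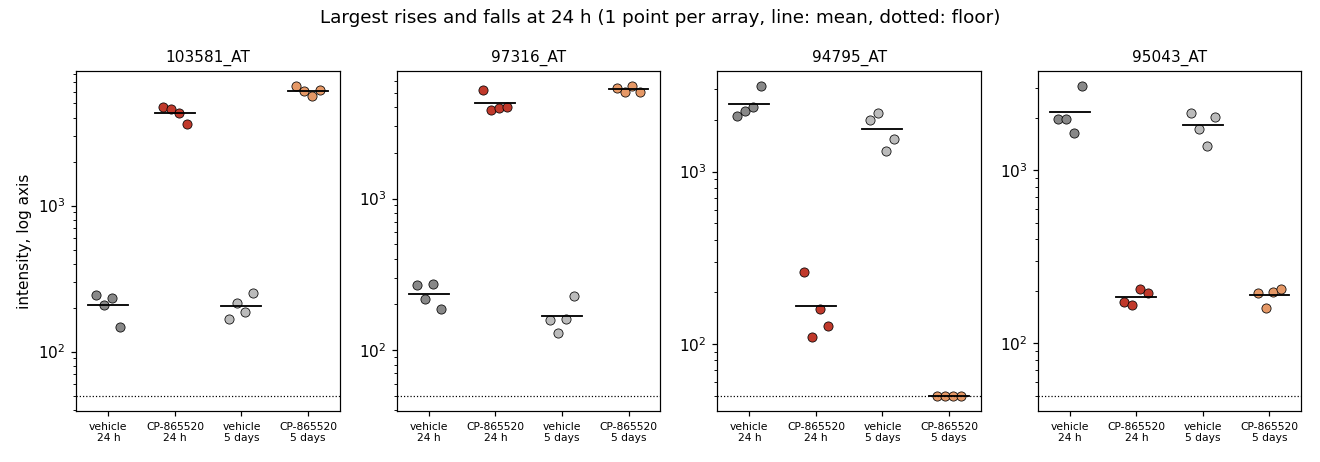
Intensity of the 2 largest rises (103581_AT, 97316_AT) and the 2 largest falls (94795_AT, 95043_AT) at 24 h, on a log axis, with 1 point per array for vehicle and CP-865520 at 24 h and at 5 days. Horizontal lines are group means and the dotted line is the floor of 50; compound and vehicle arrays lie apart in every panel at both times, and 94795_AT is at the floor on all 4 CP-865520 arrays at 5 days.

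Some responses started or ended at the floor. Of the 711 rises, 32 had all 4 vehicle arrays at the floor, and in 20 of them all 4 compound arrays were above it. Of the 902 falls, 57 had all 4 compound arrays at the floor, and in 27 all vehicle arrays were above it. A group at the floor has no spread of its own. The probe sets 103944_AT and 95349_G_AT, chosen after their values were seen as the largest of their kind, show both ends. The first read 672, 686, 539 and 827 under CP-865520 and 50 on every vehicle array, which makes it at least 13.6-fold higher (log2 change 2.86, limma adjusted p = 2.48e-14). The second read 50 on every compound array and 70, 85, 212 and 784 under vehicle, at least 5.76-fold lower (log2 change -1.29, limma adjusted p = 0.00786). Vehicle replicate 4 stood far above the other 3. Without it the vehicle mean was 122.3, at least 2.45-fold above the compound arrays, and the log2 change was -0.70 (adjusted p = 0.0202). The probe set was not called when the model held just the 2 groups compared (adjusted p = 0.197).

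The mouse controls were added to the model so that those named for a gene could be tested. Gapdh, a glycolytic enzyme, read 7151, 6167, 7754 and 6061 at its 3' probe set under CP-865520 and 6934, 6874, 6887 and 6955 under vehicle, with overlap (log2 change -0.03, limma adjusted p = 0.963). Beta-actin, a cytoskeletal protein, read 7279, 6436, 6004 and 4098 at its 3' probe set against 8048, 7347, 6606 and 7652. Replicate 4 was its lowest compound array, and the change of -0.34 did not pass the test (limma adjusted p = 0.218). Pyruvate carboxylase, which makes oxaloacetate for gluconeogenesis, read 905, 1173, 1299 and 796 at its 3' probe set against 924, 1152, 1010 and 890 (0.05, adjusted p = 0.861). The 3' probe set of the transferrin receptor, which takes up iron-loaded transferrin, stayed near the floor at 67, 62, 50 and 50 against 50, 50, 50 and 58 (0.07, adjusted p = 0.648). These reference transcripts did not pass the test at 24 h. Another mouse control, with MURFAS in its ID and no gene assigned here, rose from 61, 52, 67 and 70 to 113, 116, 100 and 102, without overlap (log2 change 0.49 ± 0.13 SE, limma adjusted p = 0.00857).

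Replicate 4 of CP-865520 at 24 h had less signal from the 5' ends of transcripts than the other arrays. The labelling starts at the 3' end, so a low ratio of 5' over 3' control signal goes with broken RNA or short labelled copies. The log2 5'/3' ratio of Gapdh was 0.10, 0.09, 0.05 and -0.45 on the CP-865520 arrays and 0.08, 0.16, -0.07 and -0.07 on the vehicle arrays. That of beta-actin was -0.56, -0.82, -0.67 and -1.45 against -0.63, -0.44, -0.64 and -0.71. That of pyruvate carboxylase was -0.86, -1.45, -1.38 and -2.67 against -1.21, -1.56, -1.47 and -1.32. Replicate 4 was below every other array of both groups in all 3 ratios, and the other CP-865520 arrays lay near or within the vehicle range. Without it the group means were 0.08 ± 0.03, -0.68 ± 0.13 and -1.23 ± 0.32 (SD, n = 3), beside 0.02 ± 0.11, -0.61 ± 0.12 and -1.39 ± 0.16 under vehicle (SD, n = 4).

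Other control probe sets also set this array apart. The middle probe set of 18S ribosomal RNA read 51, 68, 111 and 471 on the CP-865520 arrays, and 76, 92, 75 and 59 on the vehicle arrays. The B1 repeat control read 213, 190, 178 and 619 against 275, 296, 237 and 252. Over all tested probe sets, the SD of the log2 difference between 2 CP-865520 arrays was 0.249 to 0.262 in the 3 pairs without replicate 4 and 0.313 to 0.322 in the 3 pairs with it. The 6 vehicle pairs had 0.21 to 0.266. Replicate 4 was the lowest of the 4 compound arrays in 2481 of 7963 probe sets (31.2%), and the others in 985 to 1334. Among the 902 falls it was the lowest in 408 (45.2%), beside 84 (9.31%) in which it was the highest. Among the 711 rises it was the highest in 245 (34.5%) and the lowest in 218 (30.7%), and over all tested it was the highest in 21.3%. The rises and falls were called with replicate 4 included, so its place among them is not independent of the choice.

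Leaving replicate 4 out left 1296 probe sets called (16.3% of 7963), 608 higher and 688 lower. Of the 1613 calls, 1214 (75.3%) were shared, made up of 544 rises and 670 falls, and 399 were lost, 167 rises and 232 falls. A further 82 were gained, 64 rises and 18 falls, and none of the 1613 changed sign. All 79 rises and 99 of the 101 falls of at least 2-fold kept their call. The calls lost were smaller, with a median absolute log2 change of 0.39 beside 0.55 for those kept. Leaving out replicate 1, 2 or 3 in its place gave 1488, 1382 and 1547 calls and kept 1357, 1296 and 1394 of the 1613. Leaving out vehicle replicate 1, 2, 3 or 4 instead gave 1301, 1437, 1429 and 1355 calls. Of the 1613, these kept 1256, 1341, 1358 and 1272. Fewer arrays also widen the error, the median SE going from 0.119 to 0.127 without replicate 4. The part of the 3' bias in these values was not tested.

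Single probe sets show both cases, chosen after their values were seen. The probe set 96698_AT read 397, 758, 655 and 308 under CP-865520 and 355, 293, 265 and 304 under vehicle, with replicate 4 inside the vehicle range. Its log2 change was 0.64 (limma adjusted p = 0.0828) with all arrays and 0.85 (adjusted p = 0.0279) without replicate 4. The probe set 160611_AT read 1828, 2238, 1309 and 757 against 5387, 1003, 5073 and 5473. Vehicle replicate 2 was below 3 of the compound arrays, and the change of -1.28 (limma adjusted p = 0.0336) became -0.99 (adjusted p = 0.141) without replicate 4. That call was also lost without compound replicate 3 (adjusted p = 0.0647) or vehicle replicate 1, 3 or 4 (adjusted p = 0.114, 0.102 and 0.117). The 4 largest changes moved little without replicate 4. They were then 4.17 in 103581_AT, 3.94 in 97316_AT, -3.50 in 94795_AT and -3.22 in 95043_AT.

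**Figure D2:**
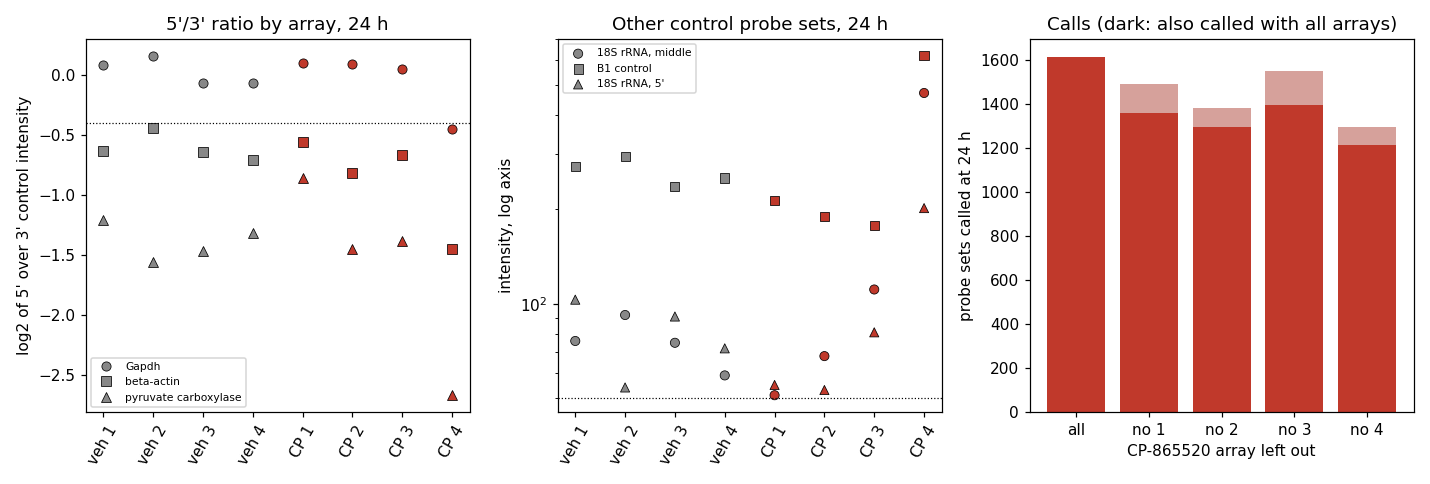
Left, the log2 5'/3' intensity ratio of 3 control transcripts on each 24 h array (vehicle grey, CP-865520 red; the dotted line is the threshold of -0.4 on the Gapdh ratio); middle, intensity of 18S ribosomal RNA and B1 controls on a log axis, with the floor of 50 dotted; right, bars of the number of probe sets called at 24 h with all arrays (1613) and with each CP-865520 array left out, dark for those also called with all arrays. Replicate 4 is lowest in all 3 ratios and leaving it out gives 1296 calls, the fewest of the 4.

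The 24 h response was then set beside the 5-day response, which rests on other arrays. After 5 days, 1218 probe sets were higher and 2137 lower under CP-865520, together 3355 (42.1% of 7963, 15.3% higher and 26.8% lower). The log2 5'/3' ratios differed between these groups too, with beta-actin at -1.29 ± 0.25 under CP-865520 and -0.80 ± 0.18 under vehicle (SD, n = 4 each) and pyruvate carboxylase at -1.91 ± 0.25 and -1.40 ± 0.16. With these ratios as a covariate, 2843 probe sets were called at 5 days. Across probe sets, which are not independent replicates, the log2 changes of the 2 times had a Pearson r of 0.69 over all 7963 and 0.86 over the 1613 called at 24 h. Of the 711 rises, 433 (60.9%) were also higher at 5 days, 241 were not called and 37 were lower. Of the 902 falls, 606 (67.2%) were also lower at 5 days, 289 were not called and 7 were higher. The split of the 5-day calls depended on scaling. It was 1527 higher and 1521 lower after quantile normalization and 1753 and 1441 after centring on probe sets above the floor. Centring on array medians, which moved the median change of all probe sets from -0.08 to 0.10, gave 2620 higher and 1240 lower. The 24 h split barely moved, at 722 and 913 with quantile normalization and 708 and 907 with median centring.

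The change of the response between the times, tested as an interaction, was called in 1378 probe sets (17.3% of 7963), 584 with a higher value at 5 days (7.33%) and 794 with a lower one (9.97%). This split turned with the scaling, to 663 higher and 508 lower after quantile normalization, 820 and 446 after centring on probe sets above the floor, and 1313 and 359 after centring on array medians. Among the rises that were higher at both times, 143 were larger and 3 smaller at 5 days by this test. Among the falls that were lower at both times, 92 were larger and 13 smaller at 5 days. The 2 largest rises are among those with a larger response at 5 days. The probe set 103581_AT read 6575, 6109, 5621 and 6181 at 5 days against 168, 214, 187 and 251 under vehicle, 29.9-fold higher. Its change of 0.52 between the times (limma adjusted p = 0.0408) was lost in 13 of 21 other settings, among them 11 that left out a single array (adjusted p up to 0.0866) and quantile normalization (0.106). For 97316_AT the change of 0.70 (limma adjusted p = 0.00519) was kept in all 21. Both of its groups moved between the times, the vehicle arrays by -0.39 and the CP-865520 arrays by 0.31 (limma adjusted p = 0.0153 and 0.0392). The falling 94795_AT was at 50 on all 4 CP-865520 arrays at 5 days, at least 35.3-fold lower, and its change between the times of -0.57 did not pass (adjusted p = 0.202).

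Responses called at 24 h only formed a smaller group. Of the 241 rises not called at 5 days, the change between the times was called in 90, and in 77 of these the 5-day value had the opposite sign without passing the test. Of the 289 falls not called at 5 days it was called in 79, with 25 of opposite sign. The largest of each kind were picked after their values were seen. The probe set 99142_AT rose at 24 h to 612, 905, 939 and 867 from 307, 350, 317 and 280, a 2.65-fold rise without overlap (log2 change 1.26 ± 0.16 SE, limma adjusted p = 1.57e-06). At 5 days its means were 498.8 and 424.5 (log2 change 0.20, adjusted p = 0.33), and the change between the times was -1.06 (adjusted p = 0.00316). The probe set 96038_AT fell at 24 h to 1133, 1177, 854 and 1296 from 2550, 2440, 3468 and 3660, 2.72-fold lower and again without overlap (log2 change -1.40 ± 0.17 SE, limma adjusted p = 1.21e-06). At 5 days its means were 2031 and 2636 (log2 change -0.37, adjusted p = 0.0891), and the change between the times was 1.03 (adjusted p = 0.00681).

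**Figure D3:**
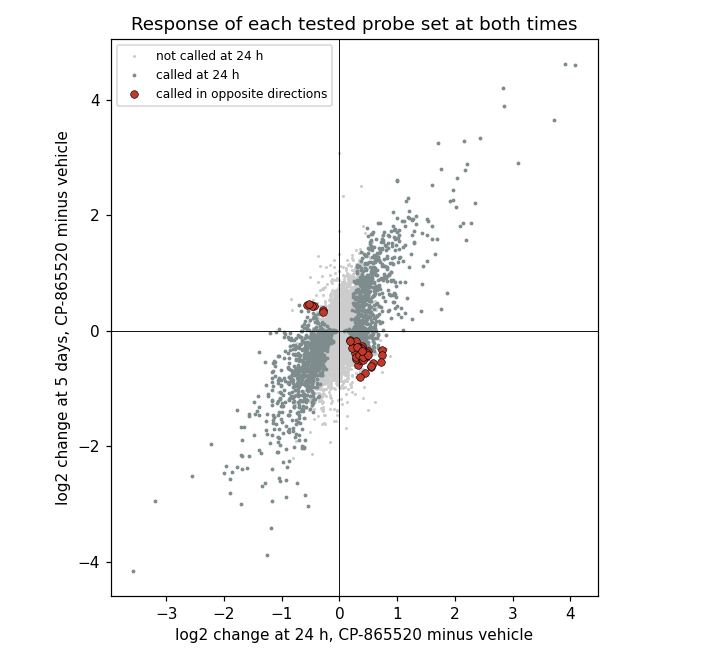
Log2 change (CP-865520 minus vehicle) at 24 h on the horizontal axis and at 5 days on the vertical axis, with 1 point for each of the 7963 tested probe sets. Light grey points were not called at 24 h, dark grey points were, and the 44 red points were called in opposite directions at the 2 times; on these log2(value + 50) axes none of them reaches 2-fold at either time.

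Only 44 probe sets (0.553% of 7963) were called in opposite directions at the 2 times, 37 higher and then lower and 7 lower and then higher. They were chosen on the values of both times, so the sizes that follow are a description. Among the 37, the log2 change ran from 0.18 to 0.74 at 24 h (median 0.39) and from -0.81 to -0.16 at 5 days (median -0.41). Among the 7 it ran from -0.56 to -0.28 (median -0.48) and then from 0.33 to 0.46 (median 0.43). On the log2(value + 50) scale none reached 2-fold at either time. By ratios of mean intensities, 1 reached 2-fold at 24 h (160073_I_AT at 2.06-fold, named after its values were seen), none did at 5 days (at most 1.97-fold), and 7 reached 1.5-fold at both times. The compound and vehicle arrays did not overlap at 24 h in 35 of the 44 (79.5%). That compares with 21.7% of all tested and 78.5% of the 1613 called at 24 h. At 5 days it was 25 (56.8%), beside 33.9% of all tested. At both times it was 18, for which no share over all tested is given here, so this count cannot be read as an excess. Choice by calls favours arrays that do not overlap. Of the 44, 32 (72.7%) were above the floor on all 16 arrays, beside 4487 of the 7963 tested.

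Of the probe sets that rose first, 92796_AT and 96837_AT had the smallest interaction p. The probe set 92796_AT read 119, 149, 106 and 134 under CP-865520 at 24 h against 67, 63, 84 and 60 under vehicle, a log2 change of 0.58 ± 0.11 (SE, limma adjusted p = 0.000469). At 5 days all 4 compound arrays were at the floor of 50 while the vehicle arrays read 79, 114, 101 and 100 (log2 change -0.57, adjusted p = 0.000213). The groups did not overlap at either time, in opposite order. The probe set 96837_AT, a brighter one, read 789, 1019, 1016 and 836 against 609, 691, 705 and 625 at 24 h (log2 change 0.44 ± 0.12 SE, limma adjusted p = 0.00749). At 5 days it read 445, 498, 523 and 374 against 776, 858, 674 and 865 (log2 change -0.73, adjusted p = 1.49e-05). Here too no array overlapped at either time, and the compound arrays fell between the times by a log2 of 0.92 where the vehicle arrays differed by 0.25 (adjusted p = 2.57e-06 and 0.123).

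Of the 7 that fell first, 94492_AT and 95647_F_AT had the smallest interaction p. The probe set 94492_AT read 1399, 1345, 1228 and 1575 under CP-865520 at 24 h against 1642, 1490, 1789 and 1859 under vehicle, with overlap (log2 change -0.28 ± 0.08 SE, limma adjusted p = 0.00843). At 5 days it read 2170, 1885, 1991 and 2032 against 1471, 1576, 1759 and 1491, without overlap (log2 change 0.35, adjusted p = 0.000478). Its vehicle arrays differed little between the times (-0.10, adjusted p = 0.343) and its compound arrays rose by 0.53 (adjusted p = 9.2e-06). Its 24 h call was lost when the model held just the groups compared (adjusted p = 0.0927). The probe set 95647_F_AT read 150, 152, 115 and 150 against 183, 185, 184 and 184 at 24 h (log2 change -0.29 ± 0.08 SE, limma adjusted p = 0.0106), and 186, 178, 191 and 162 against 125, 123, 134 and 147 at 5 days (0.33, adjusted p = 0.00168). In this one the vehicle arrays moved too, by -0.36 between the times (adjusted p = 0.00269), and without compound replicate 3 its 24 h call was lost (-0.22, adjusted p = 0.0561).

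**Figure D4:**
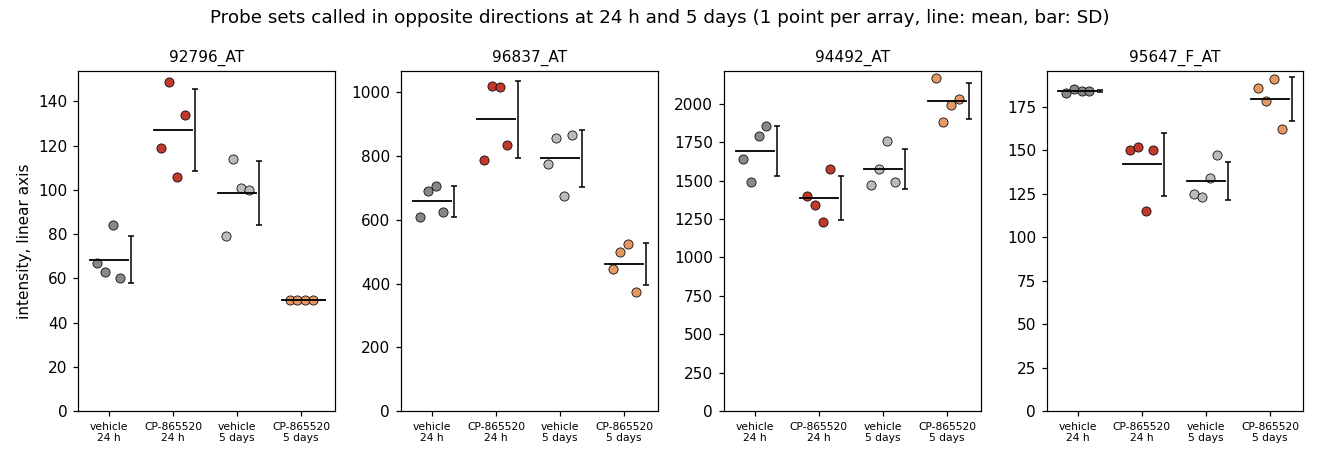
Intensity on a linear axis from 0 of the 4 probe sets traced among those called in opposite directions, with 1 point per array, horizontal lines at the group means and bars of 1 SD (n = 4). The left pair is above vehicle at 24 h and below it at 5 days, with 92796_AT at 50 on all 4 CP-865520 arrays at 5 days, and the right pair the reverse.

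A response is the compound group minus its vehicle group, so either group may differ between the times. In the vehicle arrays alone 1807 probe sets (22.7% of 7963) were called between 24 h and 5 days, and in the CP-865520 arrays 2528 (31.7%). Of the 37 that rose first, the vehicle arrays were called higher at 5 days in 30 (81.1%), beside 11.2% of all tested. The compound arrays were called lower in 21 (56.8%), beside 21% of all tested, and both groups were called in 14. The median difference between the times was 0.40 in vehicle and -0.28 under CP-865520. Of the 7 that fell first, the compound arrays were called higher at 5 days in all 7, beside 10.7% of all tested. The vehicle arrays were called lower in 3 of them, beside 11.5% of all tested. In 16 of the 44 only the vehicle arrays were called between the times, and all 16 are of the kind that rose first. No share over all tested is given here for calls in both groups or in vehicle only. These counts share arrays with the choice of the 44 and describe them only.

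Probe sets whose ID ends in _R_AT were frequent among the 44. In this array family a suffix marks probe sets that could not be designed to all the usual rules, such as those that match several members of a gene family (_F_AT) or had rules dropped (_R_AT). Of the 7963 tested, 429 carried _R_AT (5.39%), and of the 44 it was 12 (27.3%), all higher first. Of these 12, 4 kept the opposite call without replicate 4 and 3 kept it under all scalings. In 11 of these 12 the vehicle arrays were called between the times, and in 2 the compound arrays. Over all 429, the vehicle arrays were called higher at 5 days in 173 (40.3%) and lower in 9, beside 11.2% and 11.5% of all tested. The 3 other scalings gave 157 to 179 higher and 6 to 9 lower. At 24 h, 57 of the 429 rose under CP-865520 (13.3%) and 15 fell (3.5%), beside 8.93% and 11.3% of all tested. Without replicate 4, 33 rose (7.69%) and 12 fell (2.8%), beside 7.64% and 8.64% of all tested. The 18S ribosomal RNA control also differed between the vehicle groups, its 3' probe set reading 433, 452, 357 and 261 at 24 h and 1676, 1828, 1919 and 1660 at 5 days (log2 2.12, limma adjusted p = 6.82e-05), while the compound arrays went from a mean of 394 to 650.5 (0.53, adjusted p = 0.225). The part of this shift of the vehicle arrays in the opposite calls was not tested.

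**Figure D5:**
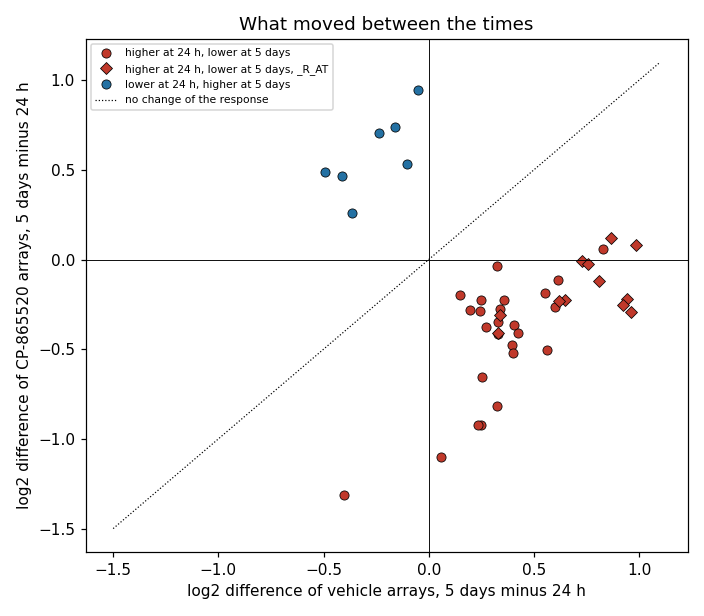
Log2 difference between 5 days and 24 h in the vehicle arrays (horizontal axis) and in the CP-865520 arrays (vertical axis) for the 44 probe sets called in opposite directions; on the dotted line the response would be equal at both times. Red points were higher at 24 h and lower at 5 days (diamonds for the 12 with an _R_AT ID) and blue points the reverse; most diamonds lie to the right near or a little below 0 on the vertical axis.

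The list of 44 depended on the scaling of the arrays and on single arrays. Quantile normalization gave 41 probe sets, 27 higher first and 14 lower first, and 28 of them were among the 44. Centring on array medians gave 61, of which 15 were higher first and 46 lower first, with 18 shared. Centring on probe sets above the floor gave 31, split 15 and 16, with 19 shared. Thus 18 of the 44 (11 higher first, 7 lower first) were called in opposite directions under all these scalings. With the 5'/3' covariate there were 37, of which 26 were shared. Without replicate 4 there were 29 (0.364% of 7963), 23 higher first and 6 lower first, of which 25 were among the 44. Without replicate 2 there were 26, of which 23 were shared. The probe sets that passed under every scaling and without replicate 4 numbered 10, and the 4 traced above are among them.

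CP-865520 was compared with each of the other agonists at 24 h, at the same dose, in 2 comparisons adjusted over all 7963 probe sets each. CP-865520 and CP-775146 differed in 8 (0.1%), all higher under CP-865520, with 1022 at an unadjusted limma p under 0.05. CP-865520 and CP-868388 differed in 2223 (27.9%), of which 1576 were higher (19.8%) and 647 lower (8.13%) under CP-865520. That count includes 2 CP-868388 arrays (replicates 1 and 3) and 1 CP-865520 array (replicate 4) with a Gapdh log2 5'/3' ratio under -0.4, and without these 3 it was 620. Quantile normalization split the calls into 770 higher and 930 lower, and median centring into 601 and 2588. A p that misses the threshold does not show that compounds act alike.

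The probe sets named next were chosen on the same CP-865520 arrays at 24 h that enter these tests. The values below therefore describe them and are not independent of the choice. Of the 44 called in opposite directions, 41 (93.2%) were called against CP-868388. That compares with 37.8% of the 1613 called at 24 h and 27.9% of all tested. No such count is given here without the 3 arrays with a 3' bias. Against CP-775146 it was 5 of the 44 (11.4%), beside 0.1% of all tested, in a comparison with 0 calls without those 3 arrays. Of the 4 largest changes, both falls passed the test against CP-868388 and neither rise did. The probe set 94795_AT read 262, 110, 160 and 126 under CP-865520 and 464, 670, 884 and 385 under CP-868388, without overlap. The difference of -1.59 (95% interval -2.04 to -1.14, limma adjusted p = 7.71e-05) was kept in all 13 other settings run. For 95043_AT the difference from CP-868388 was -1.19 (adjusted p = 0.000826), lost without the 3 arrays with a 3' bias (-0.74, adjusted p = 0.0652). For 103581_AT it was 0.25 (95% interval 0 to 0.50, adjusted p = 0.128) and for 97316_AT -0.05 (-0.28 to 0.18, adjusted p = 0.817). Of the probe sets called in opposite directions, 96837_AT read 789, 1019, 1016 and 836 under CP-865520 and averaged 545.5 under CP-868388 and 648.2 under CP-775146. It was higher under CP-865520 than under CP-868388 by 0.70 (limma adjusted p = 0.000265). The difference from CP-775146 was 0.46 (95% interval 0.22 to 0.70) and did not pass (adjusted p = 0.0696). For 92796_AT the differences were 0.60 from CP-868388 (adjusted p = 0.000696) and 0.20 from CP-775146 (-0.03 to 0.43, adjusted p = 0.477). For 94492_AT they were -0.53 (adjusted p = 9.52e-05) and -0.14 (-0.30 to 0.01, adjusted p = 0.448). For 95647_F_AT they were -0.26 (adjusted p = 0.0203), a call lost in 4 of 13 other settings (adjusted p up to 0.159), and -0.19 (-0.35 to -0.02, adjusted p = 0.315).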

How the data were processed

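Each array has 1 deposited intensity per probe set, unlogged, and the submitters' processing notes name MAS5. Which version, scaling target or step produced the floor is not given in the sources used here. Deposited values are integers from 50 to 29064, with 50.29% equal to 50 and array means of 314.1 to 318.2. No 2 arrays hold identical values. The number of arrays limits the precision.

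Values were used as log2(value + 50) in limma 3.58.1 (R 4.3.3), with 1 mean per group over all 30 arrays in 8 groups, an intensity trend in eBayes, two-sided tests and Benjamini-Hochberg adjustment. Array controls were left out, except where mouse controls were added to the model. The method was tested on simulated data. Plots used matplotlib 3.10.9 in Python 3.11.15.

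The members, lists and rules were chosen with earlier results of these data known. The named probe sets were the 2 largest rises and 2 largest falls called at 24 h, without overlap and never at the floor on the 8 arrays, and of those called in opposite directions the 2 with the smallest interaction p each way; others are said to be chosen after their values were seen. The planned gene lists and cell type markers need gene symbols and were not applied.

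Promoters of the named control genes were searched, from RefSeq with GRCm38.p6, for the direct repeat of AGGTCA spaced by 1 base on both strands. Beta-actin had no entry among these promoters and was not searched. None of the 5 promoter windows of 300 bases (Gapdh, and 2 each of Pcx and Tfrc) held it exactly or with at most 2 mismatches. Over 32851 promoters the shares were 0.0396% and 3.86%. The 2 Tfrc windows overlap. At these shares a search of 5 windows would mostly find none, so no conclusion is drawn from it.

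Alternatives were pseudocounts of 1 and 100, no filter, a stricter filter (above 80 on at least 4 arrays), 3 scalings, a covariate of the mean standardised 5'/3' ratio, leaving out the arrays with a Gapdh ratio under -0.4, fewer groups in the model, a replicate block, no trend, and each replicate left out. A filter for probe sets never at the floor on the 30 arrays and the contrasts between times within a group were added after the data were seen.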

Additional observations from a re-analysis of the deposited data

Results flagged for a closer look

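In groups of 4 arrays, an array was singled out when its gap to the nearest other array exceeded Dixon's 95% critical share of the group's range, which chance does in about 1 in 20 groups. Under CP-865520 at 24 h this applied to 97316_AT (5216 in replicate 1) and 95647_F_AT (115 in replicate 3). In replicate 4 of that group it applied to the Gapdh log2 5'/3' ratio (-0.45), the middle 18S ribosomal RNA probe set (471) and the B1 repeat control (619). Elsewhere it applied to 160611_AT in vehicle at 24 h (1003) and under CP-865520 at 5 days (387), and to 96698_AT under CP-865520 at 5 days (643).

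The response to CP-865520 differed between 24 h and 5 days in 1378 probe sets by the interaction test of limma. Among the traced ones, the 5-day change minus the 24 h change was 0.52 in 103581_AT, 0.70 in 97316_AT, 1.04 in 103944_AT, 1.03 in 96038_AT, 0.63 in 94492_AT and 0.62 in 95647_F_AT. It was -1.06 in 99142_AT, -1.14 in 92796_AT and -1.17 in 96837_AT. Among the controls it was -0.88 for the 3' Gapdh probe set, whose response went from -0.03 to -0.92, and -1.59 for the 3' 18S ribosomal RNA probe set.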

How the results depend on the processing

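The counts called at 24 h and at 5 days stayed within 1.5 times in all 21 alternatives run for each, from 1296 to 1547 and from 2922 to 3342 with 1 array left out, and at 24 h 1253 with only the compared groups in the model. The count of changed responses ran from 902 (without CP-865520 replicate 1 at 5 days) to 1476 with 1 array left out, and was 1672 with median centring, 1171 with quantile normalization and 1266 with centring on probe sets above the floor, with more higher than lower in all 3 scalings. Opposite directions numbered 29 with no filter and between 26 (without CP-865520 replicate 2 at 24 h) and 46 with 1 array left out. Against CP-868388 the count was 521 with the 5'/3' covariate, 620 without the 3' biased arrays, 814 with only the compared groups, and 1195 (without CP-868388 replicate 3) to 2345 with 1 array left out. Against CP-775146 it was 17 with the stricter filter, 32 without a trend, 3 with only the compared groups, 1 each with quantile normalization and median centring, and 0 by limma with no filter (1034 at an unadjusted p under 0.05), centring on probe sets above the floor (888), without the 3' biased arrays (929) and with the replicate block (995). With 1 array left out it ran from 0 to 41 (without CP-865520 replicate 1). Of the named 24 h calls, 160611_AT was lost in 9 of 21 alternatives. No 24 h change of a named probe set changed sign; differences near 0 between compounds did, as for 97316_AT against CP-868388 (-0.26 to 0.07). Replicate numbers showed no sign of pairing the arrays, and the labels name no shared litter, batch or day. Deviations of same-numbered compound and vehicle arrays at 24 h correlated at 0, -0.05, -0.10 and -0.07, and no array matched its own number best. With the replicate block, 1530 probe sets were called at 24 h, 3307 at 5 days, 1291 for the change, 40 in opposite directions and 2103 against CP-868388. Of all values 50.29% lie at the floor, which limits what can be said of dim probe sets.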
